A study of Mus musculus with 4 samples.

Results

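Cluster 8 held 51 of the 4449 stomach epithelial cells and carried the transcripts of the gastric proton pump. Its members were taken from the authors' deposited annotation, as every cell with the cluster number 8. There were 23 of them in the first Epcam+ library (Epcam+ 1) and 28 in the second (Epcam+ 2), out of 3538 Epcam+ cells. Female Rosa26iH2b-GFP mice, which express a histone H2b-GFP fusion under doxycycline control, received doxycycline for 4 weeks and were chased for 6 weeks. They were 14 weeks old according to the labels. Live stomach cells without Cd45 or Cd31 signal were sorted as Epcam+ cells or as Epcam+ cells that also held GFP (GFP+), and each sort gave 2 droplet 3′ single-cell libraries. Sorted cells of 2 mice were combined for loading. No source used here says that the replicate libraries came from separate animals, so the spread between them may be technical.

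Parietal cells of the corpus glands secrete hydrochloric acid into the stomach lumen. Protons are exchanged for potassium by the H,K-ATPase, a pump made of the catalytic subunit Atp4a and the glycoprotein subunit Atp4b. Potassium returns to the lumen through the channel formed by Kcnq1 and Kcne2, chloride leaves through apical channels and exchangers, and bicarbonate leaves on the blood side through the exchanger Slc4a2. At rest the pump is stored in tubulovesicles, and on stimulation by histamine, acetylcholine or gastrin these fuse with the canaliculus. The pump consumes ATP, and parietal cells are among the cells richest in mitochondria in the body.

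Levels are given as counts-per-million values (CPM), in which the unique molecular identifiers (UMIs) of a gene, summed over the cells of a cluster in a library, are divided by all UMIs of those cells and multiplied by a constant. In 3′ libraries each UMI stands for 1 transcript end, so levels were not divided by transcript length. Cluster 8 summed to 1010510 UMIs in Epcam+ 1 and to 1035512 in Epcam+ 2. Against these totals, 3 UMIs correspond to 2.97 CPM in Epcam+ 1 and 2.90 CPM in Epcam+ 2, and levels at or below them were read as not detectable at this depth. The clusters were built by the authors from the expression of the same genes, so that a difference between cluster 8 and the other clusters is a description of that partition. No test was applied to it.

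Of the 5 parietal markers, 4 were abundant in cluster 8 and 1, Slc26a7, was low. Atp4a, on chromosome 7 from 30712209 to 30725534 (GRCm38), was at 2968 CPM in Epcam+ 1 and at 4073 CPM in Epcam+ 2. Atp4b, on chromosome 8 from 13386205 to 13396825, was at 3084 and 3646 CPM. Summed over its cells, no other cluster exceeded 66.6 CPM of Atp4a or 42.9 CPM of Atp4b in either library. Some single cells of other clusters did hold many pump UMIs, as given below. Of 7710 genes with a mean level of at least 10 CPM, 16% were highest in cluster 8. Kcne2, on chromosome 16 from 92292389 to 92298129, was at 461 and 523 CPM, against at most 19.4 CPM elsewhere. Kcnq1, on chromosome 7 from 143106362 to 143427042, was at 139 and 271 CPM. Its next highest level was found in the tuft cells of cluster 9, at 60.0 and 65.3 CPM. Slc26a7, a chloride and bicarbonate exchanger on chromosome 4 from 14502430 to 14621805, was at 7.92 CPM in Epcam+ 1 and at 29.0 CPM in Epcam+ 2. These values were above every other cluster, whose highest was 2.54 CPM. However, Slc26a7 did not reach the mean of 10 CPM over cluster 8 and the rest that was asked of a gene to be counted. The parietal label thus rested on 4 of the 5 markers, the pump and its potassium channel.

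**Figure D1:**
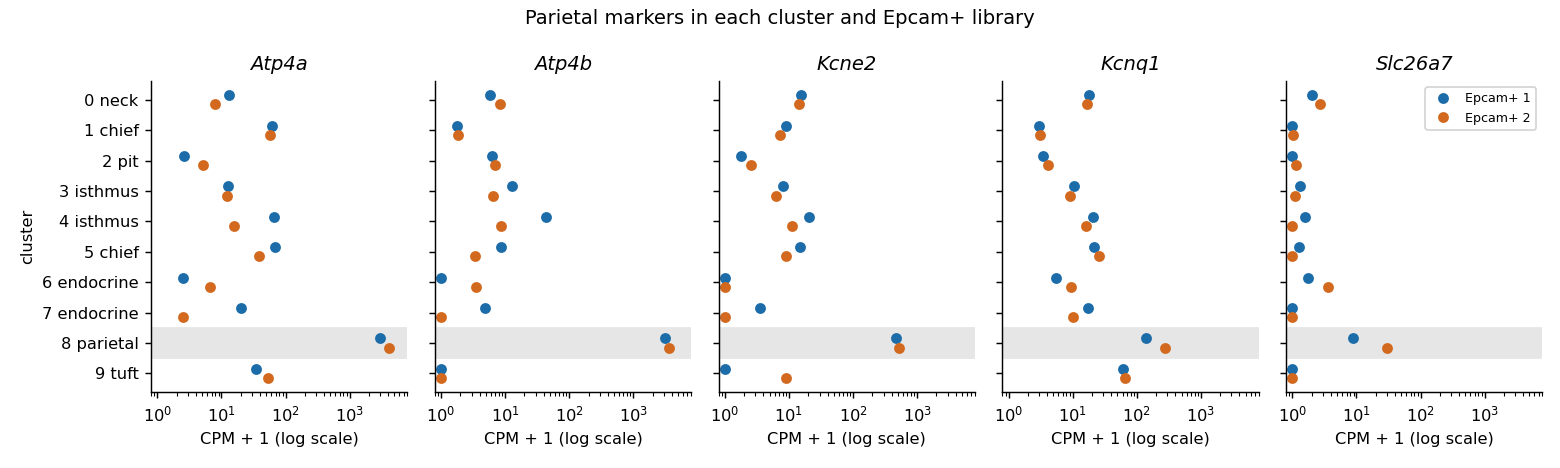
Level of the 5 parietal markers in each cluster, as CPM plus 1 on a log axis, with a point for each Epcam+ library and cluster 8 shaded. Atp4a, Atp4b and Kcne2 of cluster 8 stand at 461 CPM or more, apart from every other cluster, whereas Slc26a7 stands at 7.92 and 29.0 CPM.

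Upstream sequences of 3 genes of the acid-secreting apparatus are shown because these genes were high in cluster 8 together. They are the 250 bases before the annotated start of Atp4a (the pump), Kcne2 (its potassium channel) and Slc26a9 (a chloride channel), from RefSeq on GRCm38.p6, read 5′ to 3′ on the plus strand. Capitals mark the nuclear receptor half-site AGGTCA and the GATA motif GATAAG, searched on both strands, so that TGACCT and CTTATC are the same motifs on the minus strand.
Atp4a, chr7:30711959-30712208: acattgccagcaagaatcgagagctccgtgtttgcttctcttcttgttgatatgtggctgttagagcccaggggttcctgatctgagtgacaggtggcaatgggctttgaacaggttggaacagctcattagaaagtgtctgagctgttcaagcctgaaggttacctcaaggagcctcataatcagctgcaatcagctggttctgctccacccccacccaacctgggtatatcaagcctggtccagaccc
Kcne2, chr16:92292139-92292388: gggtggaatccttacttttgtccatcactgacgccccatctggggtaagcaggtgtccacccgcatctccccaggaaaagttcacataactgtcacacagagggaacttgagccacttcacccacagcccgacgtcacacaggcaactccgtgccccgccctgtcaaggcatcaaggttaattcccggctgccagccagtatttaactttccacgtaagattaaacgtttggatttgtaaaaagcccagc
Slc26a9, chr1:131743772-131744021: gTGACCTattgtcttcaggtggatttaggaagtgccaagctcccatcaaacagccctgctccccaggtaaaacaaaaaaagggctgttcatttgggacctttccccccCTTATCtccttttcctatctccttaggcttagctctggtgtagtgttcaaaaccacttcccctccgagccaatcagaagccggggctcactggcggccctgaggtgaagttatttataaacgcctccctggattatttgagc
The window of Slc26a9 held both motifs and those of Atp4a and Kcne2 held neither. Among all 27025 genes with an upstream sequence, 15.8% held AGGTCA and 7.60% held GATAAG in at least 1 window. Of the 15 of the 20 leading genes named below that have such a sequence, 4 held AGGTCA and 3 held GATAAG. Among these, Kcne2 held GATAAG only before a second annotated start, which is not shown. The longer half-site AAGGTCA, to which estrogen-related receptors bind, was found in 1 of the 15 (Got1), in 6 of 64 nuclear genes of the respiratory chain, and in 4.70% of all genes. Of the same 64 genes, 11 held AGGTCA (17.2%) and 3 held GATAAG (4.69%), beside 15.8% and 7.60% of all genes. A match is a description of the letters and not a bound site.

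The share of cells in cluster 8 was nearly the same in both Epcam+ libraries. It was 1.40% of 1642 cells in Epcam+ 1 (95% Wilson interval 0.935 to 2.09%) and 1.48% of 1896 cells in Epcam+ 2 (1.02 to 2.13%). No cell of cluster 8 was found among 467 cells of GFP+ 1 or 444 cells of GFP+ 2. With 0 of 911 cells, a share of at most 0.329% remains possible, counting error only. The difference in the mean share, GFP+ minus Epcam+, was -1.44 percentage points, with all Epcam+ values above all GFP+ values. In an exact permutation test (two-sided) of 2 libraries against 2, p was 0.333, which is the smallest value this design can give. The GFP+ libraries were therefore not used further for the profile of cluster 8.

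Cells of cluster 8 were deeply covered and rich in mitochondrial transcripts. The median was 40503 UMIs and 6057 genes per cell in Epcam+ 1 and 36338 UMIs and 5608 genes in Epcam+ 2. These depths were near those of the pit cells of cluster 2, at 39342 and 34707 UMIs, and far below those of the chief cells of cluster 1, at 124386 and 104376 UMIs. Mitochondrially encoded UMIs made up a median of 7.80% of a cell in Epcam+ 1 and 10.3% in Epcam+ 2, a mean of 9.03% ± 1.74 (SD, n = 2 libraries). The next cluster in this order, the endocrine cluster 6, had 7.79% and 8.18%, so that cluster 8 stood above it in Epcam+ 2 and level with it in Epcam+ 1. Of the 51 cells, 19 held at least 10% mitochondrially encoded UMIs, which is 37.3%, against 4.50% of the 3487 other Epcam+ cells. By library, 5 of 23 cells (21.7%) and 14 of 28 cells (50%) reached that level. Endocrine cluster 6, with 11.3 and 21.4%, and tuft cluster 9, with 16.7 and 23.1%, were nearer to cluster 8 than the pooled cells. At least 12% was found in 10 cells of cluster 8, or 19.6%, and in 1.09% of the other Epcam+ cells. The authors removed cells above 15%. Whether parietal cells were lost at that limit was not tested. Scrublet called none of the 51 cells a doublet, and no barcode of cluster 8 occurred in a second library.

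**Figure D2:**
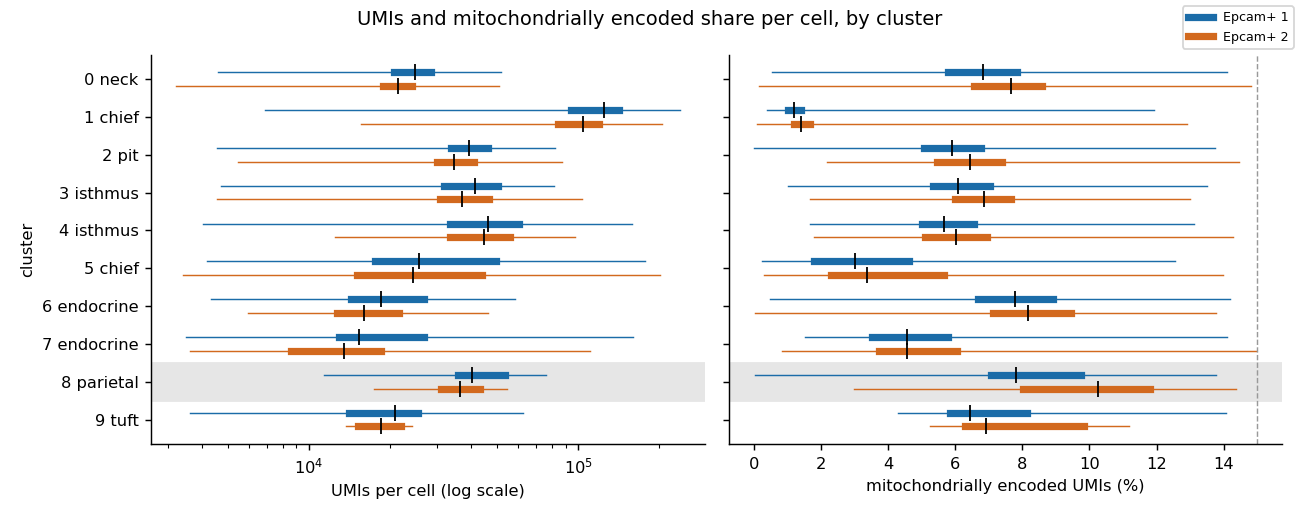
UMIs per cell on a log axis (left) and percent of UMIs that are mitochondrially encoded (right) in each cluster of the Epcam+ libraries. Thin lines span the lowest to the highest cell, thick bars the middle quartiles and ticks the median, and the dashed line is the authors' limit of 15%. Cluster 8, shaded, reaches medians of 7.80 and 10.3%.

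Across the transcriptome, cluster 8 was compared with the unweighted mean of the 9 other clusters within each Epcam+ library, as a log2 ratio with 5 CPM added to both levels. A gene was counted as higher or lower where the ratio was at least 2-fold in the same direction in both libraries. Of 7710 genes with a mean level of at least 10 CPM, 759 were higher (9.84%), 475 were lower (6.16%) and 1231 had their highest level of all clusters in cluster 8 (16%). The median log2 ratio of all these genes was 0.19, and scaling by TMM factors in place of the UMI totals moved it to -0.07. Higher genes made up 61.5% of the counted genes, but 45.9% with TMM factors, 80.9% on the scale of UMIs per cell, and 46.2% when the chief clusters 1 and 5 were left out of the mean. The balance of higher against lower genes thus differed between scalings and between comparison groups. The log2 ratios of the 2 libraries had a Spearman correlation of 0.842 across genes, which are not independent replicates.

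The 20 leading genes, those with the largest ratio in the less extreme library among genes of at least 100 CPM in cluster 8 in both libraries, were led by both pump subunits. The log2 ratio was 8.28 ± 0.64 (SD, n = 2 libraries) for Atp4b and 6.84 ± 0.62 for Atp4a. Between them stood Smim38, which encodes a small membrane protein of uncertain role, with 2144 and 2750 CPM in cluster 8 and at most 45.3 CPM in any other cluster. Fabp3, a fatty acid carrier, was at 616 and 738 CPM, and Tnni3, the cardiac troponin inhibitory subunit, was at 250 and 684 CPM. In the other clusters Tnni3 did not exceed 4.25 CPM. Ckb, the brain-type creatine kinase that buffers ATP, was at 540 and 514 CPM and was highest elsewhere in endocrine cluster 6, at 48.7 and 66.1 CPM. Ldhb, the lactate dehydrogenase subunit of oxidative tissues, was at 607 and 806 CPM.

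Further genes of the 20 had various roles. Nr0b2, a nuclear receptor that represses other nuclear receptors, was at 276 and 323 CPM. Fa2h, which hydroxylates fatty acids of sphingolipids, was at 151 and 133 CPM. The sorting nexin Snx6, at 875 and 1048 CPM, and Casp6, an executioner caspase, at 557 and 564 CPM, were present in the other clusters and several times higher in cluster 8. Cdkn2b, an inhibitor of the cyclin D kinases, was at 104 and 154 CPM, and Got1, the cytosolic aspartate aminotransferase of the malate-aspartate shuttle, was at 382 and 388 CPM. The remaining leading genes were Kcne2, Pdlim4, Esrrg, Slc26a9, Clic6, Tmem171 and Glod5. In none of the 20 did a single cell hold more than 11.1% of the UMIs of cluster 8 in both libraries together.

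Acid secretion genes were counted first, of which 17 were measured and 15 passed the filter. Of these, 10 were at least 2-fold higher and 0 were lower, beside 9.84% and 6.16% of all genes. The 10 include Atp4a, Atp4b, Kcne2 and Kcnq1, on which the parietal label rested, so part of the count repeats that label. The median log2 ratio of the 17 genes was 2.54, beside 0.19 for all genes. Kcnj15, an inwardly rectifying potassium channel, was at 414 and 437 CPM and its relative Kcnj16 at 72.2 and 43.5 CPM. Slc26a9 was at 108 and 127 CPM and did not exceed 1.61 CPM in any other cluster, whereas Cftr, the other apical chloride channel listed, was at 0 and 0.966 CPM. Clic6, an intracellular chloride channel protein, was at 835 and 1233 CPM.

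On the blood side, the bicarbonate exchanger Slc4a2 was at 209 and 293 CPM, against at most 114 CPM elsewhere. Of the sodium-proton exchangers, Slc9a2 was at 93.0 and 92.7 CPM and was highest in cluster 8. Slc9a4, at 120 and 106 CPM, was higher in the neck cells of cluster 0, at 156 and 178 CPM. Slc12a2, a sodium-potassium-chloride importer, was at 282 and 422 CPM and its level in neck cells was 397 and 411 CPM. The water channel Aqp4 was at 5.94 and 18.4 CPM and was highest in the chief cells of cluster 5, at 29.3 and 28.3 CPM. Carbonic anhydrase Car2, which supplies protons from carbon dioxide, was at 2313 and 2108 CPM in cluster 8. It was higher still in pit cells, at 2706 and 2705 CPM. Only 4 of the 13 carbonic anhydrases measured passed the filter, and 0 were counted in either direction. Among all genes 9.84% were higher and 6.16% lower, so 0 of 4 does not set this family apart. Car3, Car4, Car6, Car7, Car10 and Car11 had no UMI in cluster 8.

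The receptors for the secretagogues of acid differed widely. Hrh2, the histamine H2 receptor, was at 33.7 CPM in Epcam+ 1 and at 12.6 CPM in Epcam+ 2 and did not exceed 6.38 CPM elsewhere. After each cell was thinned to 16880 UMIs, a UMI of Hrh2 was found in 54.5% of 22 cells and in 14.3% of 28 cells, against 7.16 and 8.35% in pit cells, the next highest, and none in the chief cells of cluster 1. Before thinning these shares were 65.2 and 35.7%. Chrm3, the muscarinic acetylcholine receptor, was at 8.91 and 20.3 CPM, near its level in neck cells of 15.2 and 18.3 CPM. Cckbr, the gastrin receptor, was at 2.97 and 0.966 CPM, that is at most 3 UMIs in a library, so it was not detectable at this depth. In endocrine cluster 6 it was at 120 and 107 CPM. Of 23 receptors and second messenger genes, of which 16 passed the filter, 1 was higher (Hrh2) and 2 were lower, where 9.84% and 6.16% of all genes were. These were Gper1, a membrane estrogen receptor, at 7.92 and 3.86 CPM, and Gnai2, an inhibitory G protein subunit, at 90.0 and 73.4 CPM. Gnas, the stimulatory G protein subunit through which Hrh2 acts, was at 350 and 364 CPM and was not counted in either direction. With TMM factors Hrh2 no longer reached 2-fold in both libraries.

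Of 30 genes of tubulovesicle and canaliculus trafficking, of which 28 passed the filter, 3 were higher and 1 was lower, near the 9.84% and 6.16% of all genes. Their median log2 ratio was -0.08. Ezr, which links the canalicular membrane to actin, was at 1622 and 1651 CPM, with a log2 ratio of 2.39 ± 0.01, and was next highest in pit cells, at 848 and 842 CPM. Hip1r, an actin and clathrin adaptor, was at 119 and 131 CPM, and Slc9a3r1, a scaffold that binds ezrin, was at 113 and 114 CPM. Actg1, cytoplasmic gamma-actin, was at 5287 and 5167 CPM, its highest level of all clusters, while Actb was at 2998 and 2523 CPM and was higher in pit cells. The vesicle genes Rab11a, Rab25, Vamp8, Vamp2, Vamp3, Stx3, Stx7 and Rab27b were not counted in either direction. Snap25, a fusion protein of endocrine cells, had no UMI in cluster 8, at least 14.7-fold lower than the mean of the others in Epcam+ 1 and 17.1-fold in Epcam+ 2.

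Genes of oxidative metabolism formed the broadest group. Of 78 measured nuclear genes of the 5 respiratory complexes, 71 were at least 2-fold higher, 0 were lower and 75 had their highest level in cluster 8. Among all genes these shares were 9.84%, 6.16% and 16%. In total the 78 genes took 6.95% of the UMIs of cluster 8 in Epcam+ 1 and 7.67% in Epcam+ 2. No other cluster exceeded 2.95% in Epcam+ 1 or 2.88% in Epcam+ 2, and the lowest was the chief cluster 1 at 0.504 and 0.520%. By complex, 32 of 36 genes of complex I were higher, 4 of 4 of complex II, 9 of 9 of complex III, 12 of 13 of complex IV and 14 of 16 of complex V. With TMM factors these counts were 27, 3, 8, 8 and 13. The median log2 ratio of each complex lay between 1.75 and 2.01, and between 1.39 and 1.64 with TMM factors.

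Single subunits showed the same order in both libraries. Cox5a, a cytochrome c oxidase subunit, was at 2467 and 2843 CPM, against at most 874 CPM elsewhere. Cox7a1, the isoform of that complex known from heart and skeletal muscle, was at 81.2 and 62.8 CPM and did not exceed 3.96 CPM elsewhere, while the ubiquitous isoform Cox7a2 was at 1330 and 1411 CPM. The isoform Cox4i2 had no UMI.

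The mitochondrially encoded subunits followed less closely. Only 3 of 13 were at least 2-fold higher, mt-Nd1, mt-Nd3 and mt-Nd4l, beside 9.84% of all genes. With TMM factors 0 of the 13 were. Their median log2 ratio was 0.88, or 0.47 with TMM factors. Summed over cells, mitochondrially encoded genes took 8.50 and 10.4% of UMIs in cluster 8, and at most 7.81 and 8.29% in another cluster, both times in endocrine cluster 6. Thus the nuclear share was more than doubled over every other cluster, while the mitochondrial share was not. The mitochondrial share, however, was bounded by the authors' removal of cells above 15%. At least 12% was held by 19.6% of the cells of cluster 8 and by 1.09% of the other Epcam+ cells. Whether that limit changed the contrast was not tested.

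**Figure D3:**
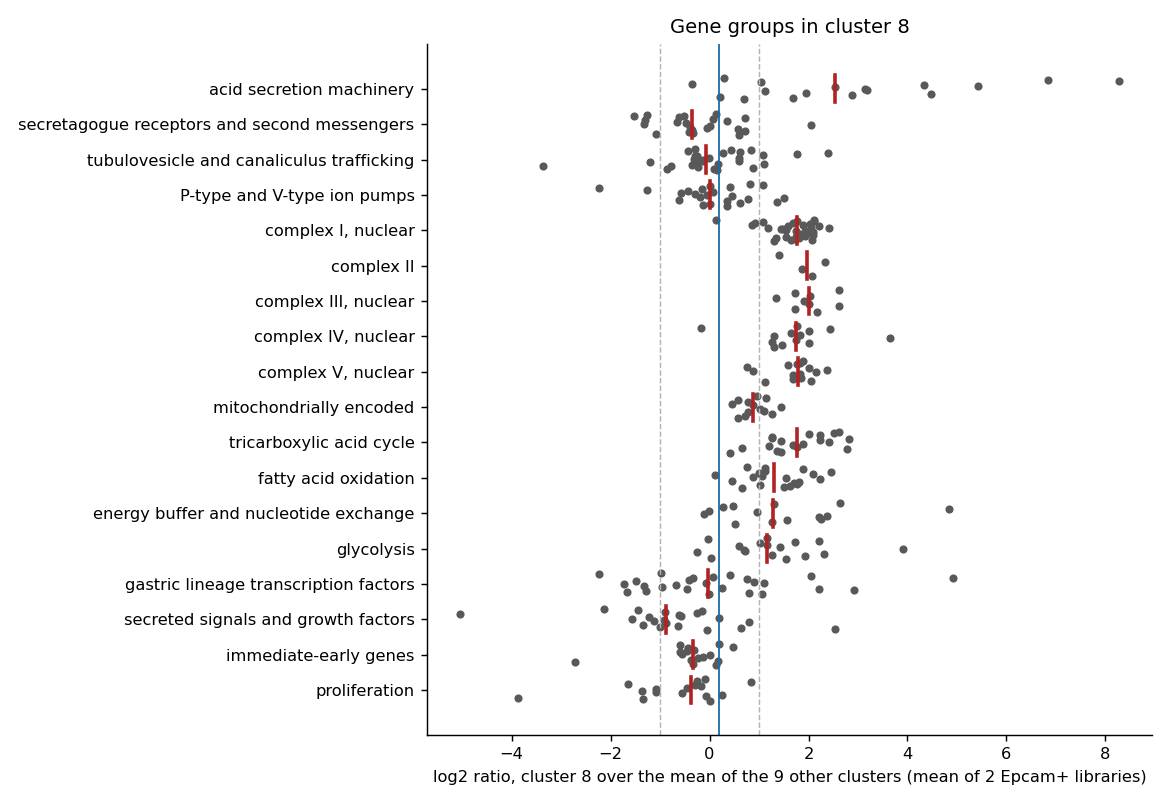
Log2 ratio of cluster 8 over the mean of the 9 other clusters for every measured gene of 18 groups, as the mean of the 2 Epcam+ libraries. Each dot is a gene, red bars are group medians, the blue line is the median of all genes at 0.19 and dashed lines mark 2-fold. The nuclear genes of complexes I to V lie to the right of the line for 2-fold with few exceptions, whereas the mitochondrially encoded genes straddle it.

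Enzymes that feed the respiratory chain were higher as well. Of 19 genes of the tricarboxylic acid cycle and its entry, 16 were higher and 0 were lower, beside 9.84% and 6.16% of all genes. Idh3a, the catalytic subunit of isocitrate dehydrogenase, was at 412 and 420 CPM (log2 ratio 2.81 ± 0.02). Pdk4, a kinase that shuts off pyruvate dehydrogenase, was at 23.8 and 81.1 CPM and differed more between the libraries than the rest. Of 20 genes of fatty acid oxidation, 13 were higher and 0 were lower, with Acadvl, which acts on very long chains, at 159 and 221 CPM and Cpt1a, the carnitine-linked entry step, at 88.1 and 93.7 CPM.

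Of 14 genes of energy buffering and nucleotide exchange, 8 were higher and 0 were lower, beside 9.84% and 6.16% of all genes. The adenine nucleotide carriers Slc25a4 and Slc25a5 were at 567 and 720 CPM and at 2142 and 1950 CPM. Ckmt1, the mitochondrial partner of Ckb, was at 392 and 271 CPM, close to pit cells at 392 and 389 CPM. Glycolytic genes were also among those counted, 10 of 17 higher and 0 lower, with Pgam1 at 751 and 662 CPM and Eno1 at 361 and 338 CPM. The glucose carrier Slc2a1, at 22.8 and 23.2 CPM, was not. With TMM factors, 11 of the 19 genes of the tricarboxylic acid cycle, 10 of the 20 of fatty acid oxidation and 7 of the 17 of glycolysis were counted as higher.

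Of 23 measured P-type and V-type pump genes, of which 21 passed the filter, 3 were higher and 1 was lower, also near the 9.84% and 6.16% of all genes. Atp1b1, the beta subunit of the sodium pump, was at 1117 and 1281 CPM. Of the vacuolar proton pump, Atp6v0e was at 500 and 579 CPM and Atp6v1d at 125 and 175 CPM. Atp2a3, a calcium pump, was lower, at 14.8 and 5.79 CPM. With TMM factors 1 of the 23 was higher and 1 lower.

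Among 26 transcription factors and coactivators of the gastric lineages and of mitochondrial control, of which 22 passed the filter, 5 were higher and 4 were lower, beside 9.84% and 6.16% of all genes. The number of lower factors was 7 with TMM factors, 7 without Epcam+ 1 and 0 with a filter of 50 CPM. Esrrg, estrogen-related receptor gamma, on chromosome 1 from 187608791 to 188214885, was at 445 and 590 CPM, with a log2 ratio of 4.93 ± 0.37. Its highest levels elsewhere were 40.0 CPM in cluster 4 of the isthmus and 28.0 CPM in neck cells. The related Esrra was at 109 and 125 CPM, whereas Esrrb had at most 1 UMI in a library. The coactivators Ppargc1a and Ppargc1b, which act with these receptors on mitochondrial genes, were at 43.5 and 71.5 CPM and at 95 and 133 CPM. Gata6, a factor of the gastric epithelium, was at 377 and 339 CPM, while Gata4, at 162 and 140 CPM, was not counted. The lower factors were Spdef, Creb3l4, Sox2 and Hnf4a. Spdef, a factor of mucous cells, was at 13.9 and 12.6 CPM, against 215 and 175 CPM in neck cells, and Creb3l4 was at 14.8 and 7.73 CPM, against 250 and 271 CPM there.

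Of 21 secreted signals measured, of which 12 passed the filter, 1 was higher and 5 were lower, beside 9.84% and 6.16% of all genes. Vegfb, a vascular growth factor, was at 172 and 177 CPM, against at most 57.0 CPM elsewhere. Hbegf and Areg, ligands of the EGF receptor, were lower, at 53.4 and 56.0 CPM and at 1.98 and 0 CPM. Pdgfa, Bmp2 and Cblif were also lower. Cblif encodes the intrinsic factor, which binds vitamin B12 and in the mouse is a product of chief cells. It was at 23.8 and 116 CPM, while in chief cluster 5 it was at 8314 and 9276 CPM. In Epcam+ 2, 40% of its UMIs lay in 1 cell. Shh, the hedgehog ligand often assigned to parietal cells, and Egf had no UMI in any of the 51 cells, and Tgfa was at 5.94 and 1.93 CPM.

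Of 16 immediate-early genes, which respond within minutes to stimulation and to cell dissociation, 0 were higher and 1 was lower. Among all genes 9.84% were higher and 6.16% lower. The lower gene was Nr4a1, at 32.7 and 18.4 CPM. Fos was at 1938 and 1662 CPM and Jun at 2332 and 2140 CPM. Of 15 keratins, claudins and other epithelial adhesion genes, of which 11 passed the filter, 0 were higher and 3 were lower. Set against single clusters, 3 of the 11 were at least 2-fold lower than in pit cells and 0 than in cluster 4. Among all genes 4.73% and 6.02% were lower in these comparisons, so the count against cluster 4 was near the share of all genes. Krt7 was at 14.8 and 17.4 CPM. The claudins Cldn3 and Cldn7 had no UMI, at least 6.83-fold and 7.43-fold lower than the mean of the others for Cldn3, and 14.7-fold and 18.2-fold for Cldn7. Cldn2, Cldn4, Cldn23 and Krt20 had no UMI either. Cldn18, the tight junction protein of the stomach, was at 916 and 854 CPM, close to the mean of the others at 840 and 851 CPM.

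Transcripts that mark tuft, endocrine and non-epithelial cells were at or near 0 in cluster 8. Several transcripts of chief and neck cells were found in nearly every cell. All 4 tuft markers (Dclk1, Lrmp, Trpm5, Pou2f3) had no UMI, and the summed 5 endocrine markers were at 29.7 and 41.5 CPM, against 19446 and 28254 CPM in the mean of the others. The 3 immune markers measured summed to 0 and 0.966 CPM, and the endothelial, fibroblast and muscle, red blood and squamous markers had no UMI, after cells with Ptprc or Pecam1 counts had been removed by the authors. The 5 chief markers summed to 2787 and 3735 CPM, against 163635 and 143803 CPM in the mean of the others, led by Pla2g1b at 2006 and 2676 CPM and Clps at 719 and 880 CPM. The 3 neck markers summed to 3515 and 1745 CPM, of which Tff2 made up 3241 and 1345 CPM. Pla2g1b and Clps were found in all 51 cells, with medians of 1609 and 658 CPM per cell, and Tff2 in 50 cells, with a median of 1092 CPM. The chief marker Cblif was found in 25 of the 51 cells, and the neck markers Muc6 and Pga5 in 33 and 44. Pgc, the pepsinogen C of neck and chief cells, was found in all 51 cells at a median of 7341 CPM per cell, above the median of 3416 CPM of Atp4a. The part of RNA from other cells in these levels was not tested. Against pit cells and cluster 4 of the isthmus, the 4 chief markers past the filter had median log2 ratios of 0.76 and -0.63. None was at least 2-fold lower in either comparison. For the 3 neck markers the medians were 0.28 and -1.67. Chief transcripts at these levels were thus not particular to cluster 8.

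The 10 genes with the largest deficit were, apart from Clps, genes that define endocrine or tuft cells or are high there. The hormones ghrelin (Ghrl) and somatostatin (Sst) were at 11.9 and 23.2 CPM and at 2.97 and 8.69 CPM, and the granins Chga and Chgb at 9.90 and 6.76 CPM and at 3.96 and 0.966 CPM. Pnliprp1, a lipase-related protein, had 2 UMIs in Epcam+ 1 and none in Epcam+ 2. The vesicular monoamine carrier Slc18a2, the noncoding RNA Meg3, Lrmp and Dclk1 had no UMI, and each was at least 92.5-fold lower than the mean of the others in Epcam+ 1. That mean was raised by single clusters, such as cluster 6 for Slc18a2 (2834 CPM) and cluster 9 for Dclk1 (2466 CPM). Against pit cells and against cluster 4, 0 of the 5 endocrine and 0 of the 4 tuft markers were at least 2-fold lower. Among all genes, 4.73% and 6.02% were lower. The lack of these markers was thus shared with those clusters.

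Pit cell transcripts separated the 2 libraries. Gkn1, a secreted protein of pit cells, was at 2822 CPM in Epcam+ 1 and at 44.4 CPM in Epcam+ 2, Tff1 was at 4929 and 69.5 CPM, and Gkn2 at 1730 and 45.4 CPM. This gap lay mostly in 2 of the 23 cells of Epcam+ 1, with 2637 and 176 UMIs of Gkn1 and 4049 and 513 UMIs of Tff1. Both also held pump transcripts, 99 and 139 UMIs of Atp4a and 166 and 98 UMIs of Atp4b, and at 75891 and 67480 UMIs both lay above the median depth of cluster 8. The third cell of Epcam+ 1 that stood apart was one with 11391 UMIs, the lowest of the cluster, and 0.0263% mitochondrially encoded UMIs, and it held 5 UMIs of Atp4a and 19 of Atp4b. Without these 3 cells, which were chosen after their values were seen, Gkn1 in Epcam+ 1 was at 45.6 CPM, Tff1 at 490 CPM and Atp4a at 3221 CPM. The counts of higher and lower genes were then 786 and 500. Krt19, another pit marker, was at 552 and 240 CPM, and 370 CPM in Epcam+ 1 without the 3 cells.

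Transcripts of cell division were present in part of the cells, without Top2a. Of 16 proliferation genes, 0 were higher and 3 were lower, beside 9.84% and 6.16% of all genes. Without Epcam+ 1, 6 were lower, and without Epcam+ 2, 1 was higher and 3 were lower. Mki67, a nuclear protein of cycling cells, was at 45.5 and 30.9 CPM, against 556 and 589 CPM in cluster 4 of the isthmus. Top2a, the topoisomerase of dividing cells, had no UMI in Epcam+ 1 and 1 UMI in Epcam+ 2. For each 100 UMIs of Mki67 there were thus 0 and 3.13 UMIs of Top2a in cluster 8. In cluster 4 this number was 89.1 and 87.4, and in the pit cells of cluster 2 it was 12.2 and 12.1. The mitotic cyclin Ccnb2 was at 67.3 and 41.5 CPM and Stmn1, a microtubule regulator used as an isthmus marker, at 239 and 143 CPM. Cdk1, the kinase of mitotic entry, was lower, at 16.8 and 10.6 CPM.

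These UMIs were concentrated in a subset of the cells. Only 9 of the 51 cells held at least 3 UMIs of Mki67, and these held 65 of its 78 UMIs. At least 1 UMI of Mki67 was found in 12 of 23 cells of Epcam+ 1 and 8 of 28 cells of Epcam+ 2. With cells thinned to 16880 UMIs, the shares were 36.4% (95% Wilson interval 19.7 to 57.0%) and 14.3% (5.70 to 31.5%). In the chief cells of cluster 1 they were 0.510 and 0.690%, in neck cells 9.09 and 8.25%, in pit cells 24.9 and 24.4% and in cluster 4 97.8 and 97.6%. Cells with a Mki67 UMI held a median of 364 and 275 CPM of Stmn1, against 99.2 and 11.0 CPM in the other cells of cluster 8. Their median Atp4a was 2044 CPM in Epcam+ 1 and 2327 CPM in Epcam+ 2, against 2530 and 4434 CPM in the others, and the ranges overlapped. Of 111 Ccnb2 UMIs in cluster 8, 105 lay in the 20 cells with a Mki67 UMI, which were also deeper, at a median of 42872 UMIs against 36387. When these 20 cells were left out, 721 of 7697 genes were higher and 471 were lower, and 7 of the 16 proliferation genes were lower. The cells were chosen by their UMIs of Mki67 or Top2a, so fewer proliferation transcripts in the remaining cells follow from the choice.

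The 51 cells varied widely in the genes of their own apparatus. Atp4a was found in every cell, with 5 to 276 UMIs and a median of 99 in Epcam+ 1, and with 21 to 302 UMIs and a median of 160.5 in Epcam+ 2. Atp4b was also found in every cell, from 2 to 481 UMIs in Epcam+ 1 and from 3 to 312 in Epcam+ 2, but 5 of the 51 cells held less than 200 CPM of it. Kcne2 was found in all 51 cells, Esrrg in 50, Kcnq1 in 50, Ckb in 48, Slc26a9 in 42, Tnni3 in 34 and Slc26a7 in 19. Pgc ranged from 8 to 2404 UMIs in Epcam+ 1.

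Across cells of a library, levels of some genes went together and others in opposite directions. The Spearman correlation of Atp4a with Atp4b was 0.62 over 23 cells of Epcam+ 1 and 0.61 over 28 cells of Epcam+ 2. Ckb went with Fabp3 (0.74 and 0.63), and Atp4b with Tnni3 (0.69 and 0.68) and with Ckb (0.74 and 0.60). In contrast, Ckb and Pgc were inversely ranked, at -0.62 and -0.75, and Pgc went with the neck mucin Muc6, at 0.83 and 0.73. Other pairs of the apparatus were close to unrelated, such as Atp4a with Kcne2 (0.23 and -0.01), Atp4a with Esrrg (0.06 and 0.06) and Atp4b with Kcne2 (0.10 and -0.10). The nuclear respiratory genes as a sum went with Ckb, at 0.57 and 0.52, and against Pgc, at -0.44 and -0.49. Cells of a library share its preparation, and their levels share the total UMIs of the cell as divisor, so that these values are a description without a test.

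**Figure D4:**
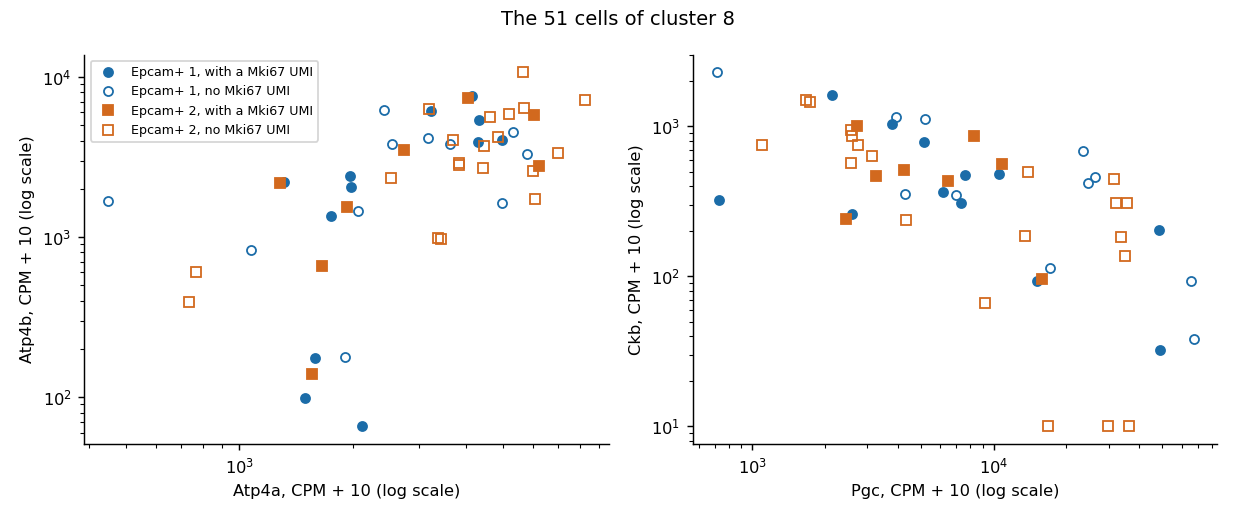
Each of the 51 cells of cluster 8, with Atp4b against Atp4a (left) and Ckb against Pgc (right), as CPM plus 10 on log axes. Filled symbols are cells with a Mki67 UMI, circles are Epcam+ 1 and squares Epcam+ 2. Atp4a and Atp4b rank together with 5 cells below 200 CPM of Atp4b, and cells with more Pgc tend to hold less Ckb.

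Pump transcripts outside cluster 8 were at far lower levels by cluster and took different forms in different clusters. After thinning to 16880 UMIs, all 50 cells of cluster 8 deep enough held at least 20 UMIs of Atp4a and Atp4b together, up to 276. Among 3954 cells outside it, 737 held at least 1 such UMI (18.6%) and 148 held at least 3. In the chief cells of cluster 1 these were UMIs of Atp4a almost alone. After thinning, Atp4a was found in 39.3% of these chief cells in Epcam+ 1 and in 35.9% in Epcam+ 2. In the chief cells of cluster 5 it was found in 28.8 and 23.8%. Cluster 1 held 59.6 and 56.1 CPM of Atp4a and 0.743 and 0.862 CPM of Atp4b in Epcam+ 1 and Epcam+ 2, that is 1.25 and 1.54 UMIs of Atp4b for each 100 of Atp4a. In cluster 8 that number was 104 and 89.5.

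A further 10 cells outside cluster 8 held at least 20 pump UMIs after thinning, a limit set after seeing that no cell of cluster 8 lay below it. Of these, 7 belonged to cluster 4 of the isthmus, 2 to cluster 3 and 1 to the neck cells, and 1 of the 10 was a GFP+ cell. The 7 cells of cluster 4 held 21 to 61 UMIs of Esrrg and 5 to 34 of Kcne2, together with 14 to 81 UMIs of Mki67 and 17 to 68 of Top2a. In Epcam+ 1, 5 of them held 90.6% of the Atp4a UMIs and 90% of the Atp4b UMIs of cluster 4. In Epcam+ 2, 1 of them held 54.9% of the Atp4a UMIs and 18.3% of the Atp4b UMIs. Scrublet called none of the 10 cells a doublet, and whether they were mixtures of 2 cells was not tested further.

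**Figure D5:**
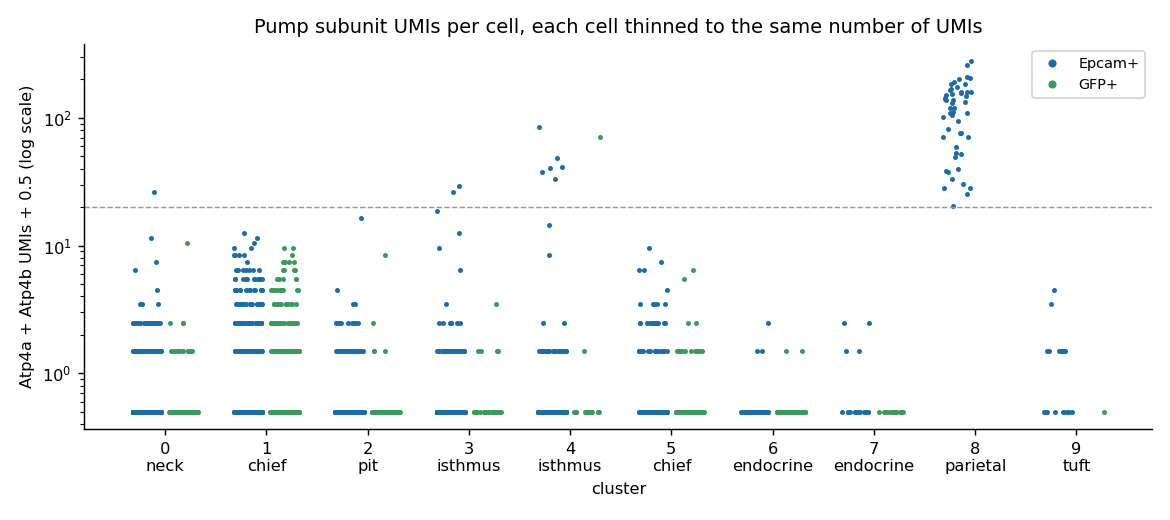
UMIs of Atp4a and Atp4b together in each cell after thinning to 16880 UMIs, plus 0.5 on a log axis, by cluster, with Epcam+ cells in blue and GFP+ cells in green. The dashed line is at 20 UMIs, which every cell of cluster 8 reaches, and 7 cells of cluster 4 lie above it.

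By the mean of both libraries, the clusters whose profile ranked genes most like cluster 8 were the pit cells and the isthmus. The Spearman correlation of log2 CPM over 7710 genes, which are not independent, was 0.804 with cluster 2, 0.792 with cluster 4 and 0.791 with cluster 3, and 0.587 with endocrine cluster 6 at the other end. In Epcam+ 2 alone, neck cells at 0.765 came before pit cells at 0.763, followed by cluster 3 at 0.749, chief cluster 5 at 0.746 and cluster 4 at 0.745, so the order did not hold in each library. Against pit cells, 677 of the 7710 genes (8.78%) were at least 2-fold higher in cluster 8 in both libraries and 365 (4.73%) lower. Against cluster 4, 533 (6.91%) were higher and 464 (6.02%) lower. The respiratory chain stood out in both comparisons. Of the 36 complex I genes, 28 were at least 2-fold higher than in pit cells and 28 than in cluster 4, with medians of 1.45 and 1.35, and none were lower. Glycolysis had fewer, with 4 and 5 of 16 genes higher in the same 2 comparisons. Of the 16 immediate-early genes, 8 were at least 2-fold lower than in pit cells and 1 than in cluster 4. Among all genes 4.73% and 6.02% were lower, so the count against cluster 4 was near the share of all genes.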

How the data were processed

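Single-cell RNA-seq of 4 libraries was analysed. Reads had been processed by the authors to UMI counts, for which the submitters' processing notes name Cell Ranger 3.0.2 and the mm10 build, followed by removal of cells above 15% mitochondrial counts, outside their limits on genes per cell, or with Ptprc or Pecam1 counts. The deposited matrix holds unnormalised UMI counts (17712 genes, 4449 cells). A second deposited table gives the library and cluster number of every cell. Clusters carry numbers only, and their names here follow the markers of the study. Library totals ran from 35571141 UMIs (GFP+ 1) to 79455225 (Epcam+ 2).

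UMIs were summed per cluster and Epcam+ library and divided by the total (CPM). Ratios used a pseudocount of 5 CPM, a filter of 10 CPM on the mean and a 2-fold limit in both libraries, with no test, since the clusters were made from these genes. The script was tested on simulated data. Shares were compared by an exact permutation test. Cells were thinned to 16880 UMIs, leaving out 445 cells. Wilson intervals are at 95%, and a count of 0 allows 3 counts, both for counting error only. Doublets were called with Scrublet in scanpy 1.11.5 (Python 3.11.15, scipy 1.17.1), 74 in all, and TMM factors came from edgeR 4.0.16 (R 4.3.3).

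The members, gene lists and tests were chosen with earlier results of these data known. Named are the parietal markers, in each list the 3 most abundant members and those past the 2-fold limit, the 20 highest and 10 lowest genes, and the first 2 markers of each other cell type. Other genes were named after their values were seen, and 3 alternatives (without the 3 cells apart, without cells with a Mki67 or Top2a UMI, and without the chief clusters in the mean) were added after seeing the data. Gene positions are from GENCODE vM21 and upstream sequences from RefSeq, both on GRCm38. Some genes of the lists are not reported here.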

Additional observations from a re-analysis of the deposited data

How the results depend on the processing

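The counts of genes moved with the settings. With a pseudocount of 20 CPM, 485 genes were higher and 264 lower, and without a filter 877 were lower. A filter of 50 CPM left 503 higher, 132 lower and 716 highest in cluster 8, as fewer genes were counted. With TMM factors 437 were higher, all of them among the 759. On the scale of UMIs per cell 1166 were higher and 275 lower, and against all other cells pooled 217 were lower. Krt7, lower in the main comparison at -1.81, reversed against the pooled cells, at 0.020. No other of the 234 named genes reversed. Leaving out 1 Epcam+ library gave 912 to 1023 higher and 529 to 694 lower genes. The setting without doublets left out only those called in cluster 8. None was called there, so it repeated the main counts and could not show any effect. Doublets called in the other clusters were kept. The cause of these changes was not tested. By Pearson correlation the likeness was 0.854 with cluster 2 and 0.850 with cluster 4, and cluster 3, at 0.853, came before cluster 4. Counted without thinning, 538 cells outside cluster 8 held at least 3 pump UMIs. The share of cells differed by -1.40 to -1.48 percentage points with 1 library left out, and by -1.77 with chief cells left out of the total. With the replicate number as a block, the difference of -1.44 had p = 0.5 in the exact permutation test, the smallest value possible with 4 labelings. The replicate numbers are not said to mark shared animals. The mitochondrial median ran from 7.80 to 10.3% with 1 library left out. A further limit is size, since the 23 and 28 cells sum to 1010510 and 1035512 UMIs, so that genes at or below 2.90 to 2.97 CPM could not be read.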

Other observations

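Set against the pit cells of cluster 2, the cluster with the most similar profile by the mean of both libraries, further genes stood apart in cluster 8 that belong to none of the groups above and were chosen after their values were seen. Lpl, lipoprotein lipase, was at 84.1 and 117 CPM in cluster 8 and at least 3.53 higher on the log2 scale than in pit cells in both libraries. Slc16a7, a carrier of lactate and pyruvate, was at 208 and 258 CPM and at least 4.09 higher. Lgals1, a galectin, was at 120 and 116 CPM and at least 4.08 higher. Bpifb1, a secreted antimicrobial protein, was at 442 and 746 CPM, and Apoa1, the main protein of high-density lipoprotein, at 184 and 540 CPM. All of these had their highest level of all clusters in cluster 8.

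Genes of pit cells were low in turn. Anxa1, an annexin, was at 6.93 and 2.90 CPM in cluster 8, with log2 ratios to pit cells of -3.87 and -4.13. Adh7, an alcohol dehydrogenase of the gastric surface, was at 22.8 and 0 CPM, and Aldh3a1, an aldehyde dehydrogenase, at 16.8 and 0 CPM. Against cluster 4 of the isthmus, 3 genes chosen after their values were seen had few UMIs. Prc1, which organises the spindle midzone, had no UMI in cluster 8, and Nusap1 and Kif23 had at most 3 UMIs in a library.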
